A study of Sus scrofa with 12 samples.

Results

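Most genes described here take up carotenoids and vitamin A into the liver, cleave, store and oxidize them, or carry retinol back into the blood. RARB instead encodes a nuclear receptor for retinoic acid. The full set was BCO2, BCO1, RBP4, RDH16, RDH11, LRAT, RARB, SCARB1 and TTR, 9 genes chosen by their symbol in the probe annotation. Of these, 7 were found under a transcript with 1 gene symbol, out of 12307 such genes on the array. BCO1 and TTR were not found in this way and were not analysed here. Liver RNA came from 12 suckling piglets, offspring of Baden-Württemberg Genetics hybrid sows and Pietrain boars, on the third day of life. The 6 piglets of the SINS low group had no or only slight signs of SINS, a syndrome of inflammation and necrosis in swine, and the 6 piglets of the SINS high group had strong signs. The groups were defined by this score, all piglets were killed with pentobarbital after anaesthesia with ketamine and azaperone, and both groups were chosen as the extremes of a larger scored population. The labels call every sample mixed-sex, and the sex and litter of the single piglets were not given in the sources used here.

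Carotenoids from milk reach the liver in lipoproteins, and beta-carotene is split by BCO1 into retinal, the aldehyde of vitamin A. BCO2 is a related oxygenase of the mitochondria, which cleaves carotenoids off centre and also accepts the oxygenated carotenoids. Retinol is stored as retinyl ester in the stellate cells of the liver, released from hepatocytes bound to RBP4 and TTR, and oxidized through retinal to retinoic acid, which acts through nuclear receptors.

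Each transcript was read by a set of short probes, and the authors summarized them with RMA to 1 log2 value per transcript and array, with 1 array per piglet. An increase of 1 on this scale is a doubling of the signal. Array medians ranged from 4.36 to 4.42 on the log2 scale, and any pair of arrays correlated with 0.964 to 0.988. A gene was called higher or lower in the SINS high group at the filter of the study's methods, a fold change above 1.3 with an unadjusted p below 0.05, here from limma. Among all named genes, 2.3% were called higher and 3.8% lower, 6.1% together, and 4.67% passed the same filter with the methods' t-test. No transcript had an adjusted p below 0.05 with limma or with the methods' t-test (smallest 0.254 and 0.413), while 2884 had an unadjusted p below 0.05 with limma. The hepatocyte markers ALB, APOA1, AHSG and FGB were measured at group means of 11.5 to 12.8 in these livers. In these bulk samples, fewer cells of a type and less RNA per cell cannot be told apart.

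BCO2 was the only one of the 7 genes that passed the filter. It was higher in the SINS high group, and the other 6 did not pass. The median log2(FC) of the 7 genes was 0.04, against 0.0033 over all named genes. Of the 7 genes, 5 had a positive and 2 a negative log2(FC), and 0 had groups that did not overlap, against 0.463% of all named genes. BCO2 had been among the genes that the study picked from these same arrays, so its call is not independent evidence. The same holds for RBP7, CTNS, EPB42, ALAS2, HEMGN, HBB, VSIG4, CSF1R, MPO, TAT, CRP and CP, which the study also listed as regulated on these arrays. For a technical check of the array values, the study measured strongly regulated genes by qPCR, with BCO2, EPB42, HEMGN, MPO, CRP and CP among them. It reported each of these as higher in the SINS high group. These genes were picked for their change on the arrays, so the qPCR is not independent evidence either. The qPCR difference was significant for BCO2, EPB42 and CP and not for HEMGN, MPO and CRP.

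**Figure D1:**
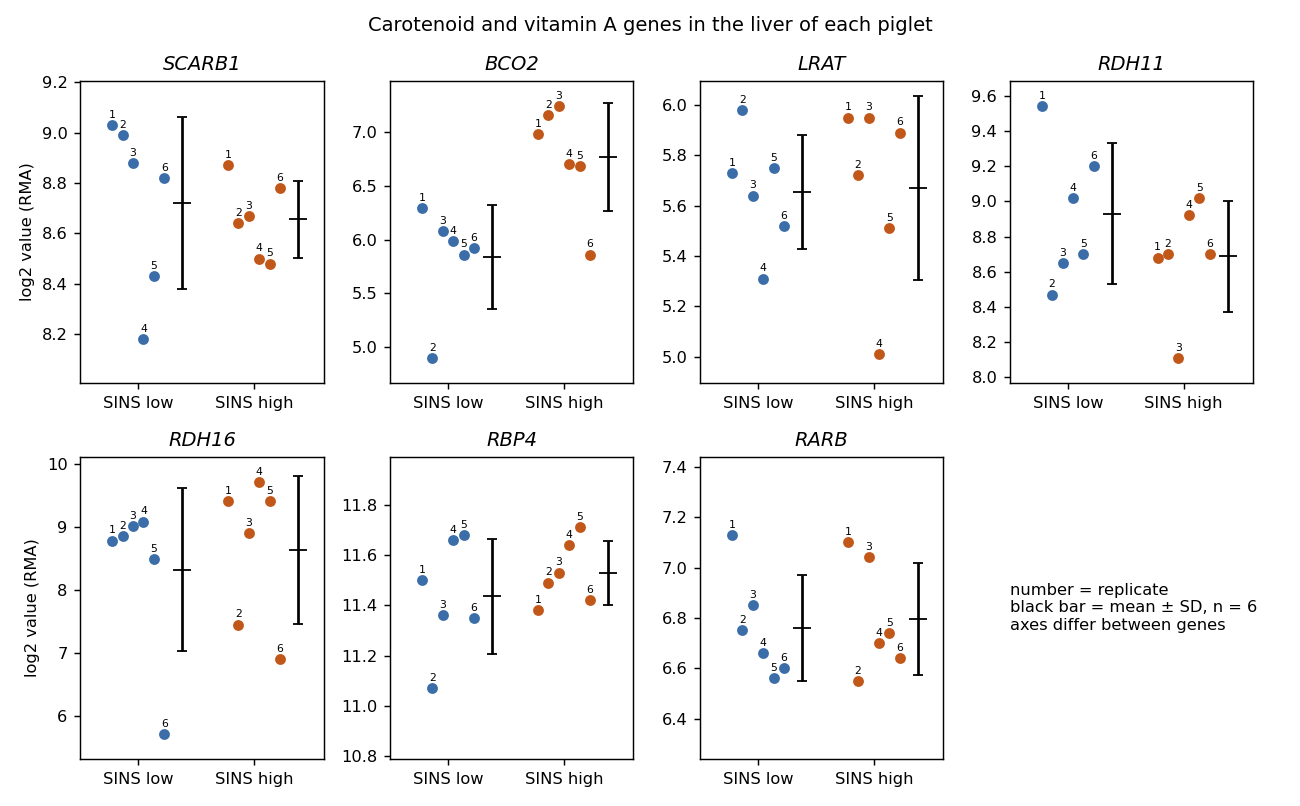
log2 values of 7 carotenoid and vitamin A genes in the livers of 6 SINS low and 6 SINS high piglets, 1 point per piglet with its replicate number. Black bars give the mean ± SD, and the scale differs between genes. BCO2 lay between 4.90 and 6.29 in the SINS low group and between 5.86 and 7.24 in the SINS high group.

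SCARB1 encodes the scavenger receptor that takes up cholesterol esters from high density lipoprotein and also carries carotenoids into cells. Its log2 value was 9.03, 8.99, 8.88, 8.18, 8.43 and 8.82 in SINS low replicates 1 to 6. In the SINS high group it was 8.87, 8.64, 8.67, 8.50, 8.48 and 8.78. All 6 SINS high piglets lay inside the range of the SINS low group, and 5 of them lay below its median. The log2(FC) was −0.065 (standard error 0.14, 95% confidence interval −0.37 to 0.24, adjusted p = 0.904 from limma). A second transcript of SCARB1 had a log2(FC) of −0.0017 (standard error 0.15).

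BCO2 was measured in the SINS low group at 6.29, 4.90, 6.08, 5.99, 5.86 and 5.92. The SINS high group gave 6.98, 7.16, 7.24, 6.70, 6.68 and 5.86. In 5 of the 6 SINS high piglets BCO2 was above the highest SINS low piglet. SINS high replicate 6 was the exception, with 4 SINS low piglets above it and 1 at the same value. The group means were 5.84 ± 0.48 (SINS low) and 6.77 ± 0.50 (SINS high), each with its SD and n = 6. The log2(FC) of 0.93 corresponded to a 1.91-fold higher signal (standard error 0.25, 95% confidence interval 0.40 to 1.46). The unadjusted p of limma was 0.00203, and the exact permutation test over all 924 assignments of the piglets gave a two-sided p of 0.013. Adjusted over all transcripts, the p of limma was 0.28. The lowest SINS low piglet, replicate 2, stood 0.96 below the next. Without it the log2(FC) was 0.74, and BCO2 still passed the filter. A further transcript of the array carries BCO2 together with TEX12, its neighbour in the RefSeq annotation of the pig genome, and was not used. The study listed TEX12 as lower in the SINS high group on these arrays. Whether that entry is the shared transcript, and in which direction the shared transcript changed, was not checked.

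Some markers of other cells also differed between the groups in which BCO2 differed. Over all named genes, 2.3% were called higher and 3.8% lower in the main limma fit. When 1 array was left out, these shares ranged from 1.76% to 3.92% higher and from 2.72% to 6.2% lower. Both were lowest without SINS low replicate 6 and highest without SINS high replicate 6. The share called higher was 2.9% without SINS low replicate 4, 2.6% with array quality weights and 0.707% at a fold change above 1.5. Of 7 genes of red blood cell precursors, 5 were higher in the SINS high group and 0 lower, with a median log2(FC) of 0.72. The called genes included EPB42 of the red cell membrane (1.17, standard error 0.27), ALAS2 of heme synthesis (0.72, standard error 0.19), HEMGN (1.02, standard error 0.29) and the globin gene HBB (0.59, standard error 0.17). Their summed linear signal lay between 92.3 and 214 in the SINS low group and between 170 and 341 in the SINS high group. Of 9 Kupffer cell genes, 3 were higher and 0 lower, namely VSIG4 (0.50, standard error 0.17), CSF1R (0.47, standard error 0.15) and TIMD4 (0.45, standard error 0.19). TIMD4 was not called with the methods' t-test. MARCO had a log2(FC) of −0.23 and CD14 of 0.08. The number of Kupffer cell genes called higher was 1 without SINS high replicate 3 (VSIG4). It was 2 without replicate 4 or 6 of the SINS low or replicate 1, 2 or 5 of the SINS high group. It was 4 without SINS low replicate 1 and 5 without SINS high replicate 6. At a fold change above 1.5 it was 0. The summed signal of these 9 was 2380 to 3700 in the SINS low and 2770 to 4460 in the SINS high group. Of 5 granulocyte genes, all had a positive log2(FC), with a median of 0.55, and the myeloperoxidase gene MPO passed the filter (0.90, standard error 0.30). The number called higher was 5 without SINS low replicate 4, 4 without SINS high replicate 5 or 6, 2 without SINS low replicate 1 and 3 with array quality weights. The summed signal of this list was 47.1 to 150 in the SINS low and 76.9 to 195 in the SINS high group. Of 7 hepatocyte genes, the tyrosine aminotransferase gene TAT was higher (0.52, standard error 0.21), though not without replicate 1 or 2 of the SINS low or replicate 3 or 5 of the SINS high group, and the summed signal was 26800 to 28800 in the SINS low and 27300 to 29200 in the SINS high group. Their part in the difference of BCO2 was not tested. No gene was called in the lists of the sinusoidal endothelium (8 genes, smallest p for CLEC4G with a log2(FC) of 0.36), bile duct (6 genes, KRT19 with −0.38), or T and B cells (7 genes, LCK with 0.30). All 7 T and B cell genes were dim, with group means from 1.755 (CD3G) to 3.86 (CD79B), both in the SINS high group. They lay below the array medians of 4.36 to 4.42, so a small log2(FC) there does not show that a change was absent. The counts of 0 in these 3 lists held in the main limma fit of all 12 piglets and not in every fit. Without SINS high replicate 6, 3 endothelial genes (STAB1, CLEC4G and OIT3) were higher. CLEC4G was also higher without SINS low replicate 4, with array quality weights and after quantile normalization. STAB1 was also higher without SINS low replicate 5 and with the replicate number as a block. KRT19 was lower without SINS low replicate 5 or SINS high replicate 4, 5 or 6, with median centring and with the replicate number as a block. CD2 of T cells was higher without SINS low replicate 2 or SINS high replicate 4.

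LRAT joins a fatty acid to retinol and so makes the retinyl ester that stellate cells store. Its values were 5.73, 5.98, 5.64, 5.31, 5.75 and 5.52 in the SINS low group. In the SINS high group they were 5.95, 5.72, 5.95, 5.01, 5.51 and 5.89. The groups overlapped almost fully, and the lowest piglet was SINS high replicate 4. The log2(FC) was 0.017 (standard error 0.16, 95% confidence interval −0.33 to 0.36, adjusted p = 0.981 from limma), and its sign changed when single arrays were left out. Of 12 stellate cell markers, 0 were called higher and 0 lower, with a median log2(FC) of −0.015. The collagen gene COL1A1 had the smallest p of this list, with a log2(FC) of −0.64 (standard error 0.33). COL1A1 was called lower with array quality weights, without SINS low replicate 4 and without SINS high replicate 1 or 5, and without SINS high replicate 1 the actin gene ACTA2 was lower as well.

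LRAT and the mean of the 12 stellate cell markers were compared across piglets. Over the 12 piglets, Pearson's r was 0.518 (permutation p = 0.0834) and Spearman's rho 0.532 (permutation p = 0.0773). In the 6 SINS low piglets r was 0.89 (exact permutation p = 0.0125) and rho 0.886 (exact permutation p = 0.0333). In the 6 SINS high piglets r was 0.327 (exact permutation p = 0.533) and rho 0.406 (exact permutation p = 0.433). Without the 2 piglets farthest from the median of the marker mean, r was 0.503 over 10 piglets (permutation p = 0.136). This was the only one of the 3 planned relations that could be computed, since the others needed BCO1 and TTR. The difference between the groups in this relation was not tested.

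**Figure D2:**
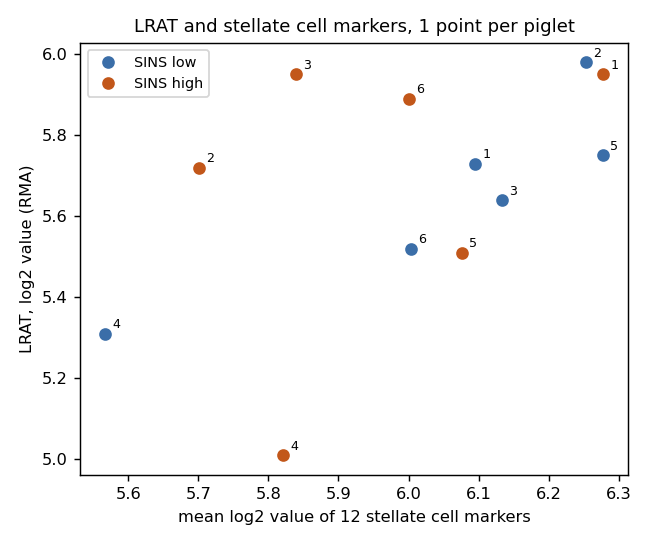
LRAT (vertical axis, log2 value) against the mean log2 value of 12 stellate cell markers (horizontal axis), 1 point per piglet with its replicate number. Pearson's r was 0.89 in the 6 SINS low and 0.327 in the 6 SINS high piglets, a difference that was not tested. SINS low replicate 4 was the lowest of its group on both axes.

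RDH11 encodes an enzyme of the endoplasmic reticulum that reduces retinal to retinol. It was measured at 9.54, 8.47, 8.65, 9.02, 8.70 and 9.20 in the SINS low group. The SINS high group gave 8.68, 8.70, 8.11, 8.92, 9.02 and 8.70. The highest piglet belonged to the SINS low group and the lowest to the SINS high group, and the ranges overlapped. RDH11 had a log2(FC) of −0.24 (standard error 0.19, 95% confidence interval −0.64 to 0.16, adjusted p = 0.652 from limma).

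RDH16 works mainly in the other direction and oxidizes retinol to retinal in the human liver. Its values in the SINS low group were 8.78, 8.85, 9.01, 9.08, 8.49 and 5.72. The SINS high group gave 9.40, 7.45, 8.90, 9.71, 9.41 and 6.90. Low values occurred in both groups, in SINS low replicate 6 and SINS high replicates 2 and 6, all below 8, while the other 9 piglets lay between 8.49 and 9.71. RDH16 had a standard deviation within groups of 1.23, larger than that of 99.9% of named genes, whose median was 0.217. The log2(FC) was 0.31 (standard error 0.60, 95% confidence interval −0.98 to 1.59, adjusted p = 0.888 from limma). With 6 piglets per group, a difference of the size seen for BCO2 would therefore lie within the interval of RDH16. Without SINS low replicate 6 the log2(FC) was −0.21, and without SINS high replicate 6 it was 0.65.

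The difference between RDH16 and RDH11 within each piglet was compared between the groups. It was higher by 0.55 in the SINS high group, with a standard deviation of 1.47 in the SINS low and 1.16 in the SINS high group (exact permutation test, two-sided p = 0.509, adjusted p = 0.909 over 2 pairs). The difference between LRAT and RARB was lower by 0.02 in the SINS high group, with mean differences of −1.12 and −1.10 in the SINS high and SINS low group (exact permutation test, two-sided p = 0.909, adjusted p = 0.909). Neither pair passed the test.

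RBP4 is made by hepatocytes and carries retinol in the plasma. It was measured at 11.50, 11.07, 11.36, 11.66, 11.68 and 11.35 in the SINS low group. In the SINS high group the values were 11.38, 11.49, 11.53, 11.64, 11.71 and 11.42. The groups overlapped, and the lowest value was that of SINS low replicate 2, the same piglet in which BCO2 was lowest. For RBP4 the log2(FC) was 0.092 (standard error 0.11, 95% confidence interval −0.14 to 0.33, adjusted p = 0.798 from limma). RBP4 is known as a plasma protein that falls in inflammation in humans. Of 7 genes listed here as acute phase proteins that rise in inflammation, 2 were called higher and 0 lower. These were CRP (0.97, standard error 0.32) and the copper carrier CP (0.75, standard error 0.27). Whether each of the 7 rises in inflammation in pigs was not checked here. The median of this list was 0.11. SAA3 had 0.11, HP 0.12, ORM1 −0.02, ITIH4 −0.18 and the fibrinogen chain FGG 0.055, and none of these passed the filter. By qPCR, however, the study reported HP mRNA as significantly increased in the SINS high group. On the array HP had group means of 12.12 (SINS low) and 12.24 (SINS high), near those of the hepatocyte markers. C3 was not found under its own symbol here, and the study listed a complement C3 transcript as higher on these arrays.

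RARB encodes a nuclear receptor for retinoic acid and is itself induced by retinoic acid. Its log2 values in SINS low replicates 1 to 6 were 7.13, 6.75, 6.85, 6.66, 6.56 and 6.60. In SINS high replicates 1 to 6 they were 7.10, 6.55, 7.04, 6.70, 6.74 and 6.64. Each group held both high and low piglets over the same range. RARB had a log2(FC) of 0.037 (standard error 0.12, 95% confidence interval −0.23 to 0.30, adjusted p = 0.942 from limma).

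**Figure D3:**
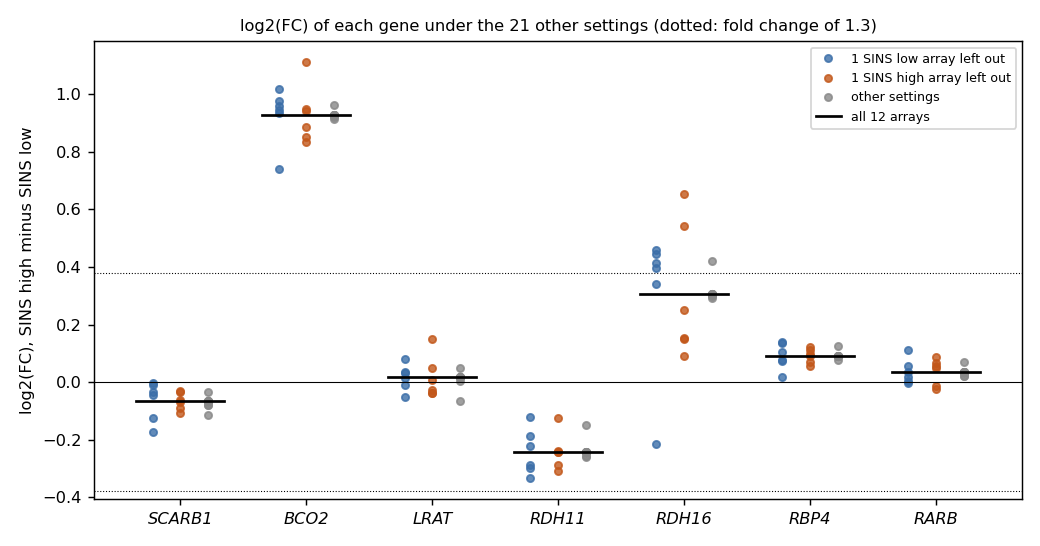
log2(FC) of each of the 7 genes (SINS high minus SINS low) with all 12 arrays (black line), with 1 SINS low array left out (blue), with 1 SINS high array left out (orange) and under the other settings (grey). Dotted lines mark a fold change of 1.3. BCO2 stayed between 0.74 and 1.11, whereas RDH16 ranged from −0.21 to 0.65.

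No correlation among the 7 genes passed adjustment. Deviations from the group means were correlated for all 21 pairs of genes over the 12 piglets, with p-values from permutations within the groups. Pearson's r ranged from −0.79 to 0.591. The lowest r was that of SCARB1 with RBP4 (permutation p = 0.00863, adjusted p = 0.158 over 21 pairs), with a Spearman's rho of −0.769 (permutation p = 0.00956, adjusted p = 0.201). It was −0.749 in the SINS low and −0.967 in the SINS high group, and −0.674 without the 2 piglets farthest from the median of SCARB1. The highest r was that of SCARB1 with LRAT (permutation p = 0.015, adjusted p = 0.158), with a Spearman's rho of 0.581 (permutation p = 0.0458, adjusted p = 0.229), and it was 0.664 without the 2 farthest piglets. After adjustment 0 of the 21 pairs had a p below 0.05, against 3 before adjustment. For BCO2 the largest r over all 12 piglets was 0.456, with RBP4 (permutation p = 0.158, adjusted p = 0.474, Spearman's rho 0.14 with permutation p = 0.674, adjusted p = 0.84). Without the 2 piglets farthest from the median of BCO2, r was −0.454 with RBP4, 0.64 instead of −0.177 with LRAT, and 0.545 instead of 0.376 with RARB. Within the SINS low group alone it was 0.698 with RBP4 and 0.694 with RDH11, and within the SINS high group 0.0913 and −0.411. The correlations of BCO2 thus changed with the piglets included.

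The genes most like BCO2, by Pearson's r of the deviations from the group means over 12 piglets, were TRPM6, a magnesium channel (0.923), PLCL1 (0.908) and the histone methyltransferase gene NSD3 (0.89). Of these, none was called between the groups, with a log2(FC) of 0.14 for TRPM6, 0.18 for PLCL1 and 0.19 for NSD3. The gene most like SCARB1 was GALK2 (0.937), that most like LRAT was DENND6A (0.926), and that most like RDH11 was the mitochondrial carrier gene SLC25A45 (0.958). RDH16 was most like the lysosomal cystine transporter gene CTNS (0.904), RBP4 most like FMNL2 (0.924) and RARB most like RARS2 (0.939). These values describe the closest of 12306 other genes over 12 piglets, and no test was made of them.

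Other genes of carotenoid and retinoid handling were mostly not called. Of 73 further genes written into 7 lists, 45 were measured, some of them in more than 1 list, of which 2 were higher, 1 was lower and 42 did not pass the filter. Called genes thus made up 6.67% of the 45, near the 6.1% of all named genes, so their number does not set them apart from other genes. Their median log2(FC) was 0.062. Without the dimmest 25% of transcripts, 38 of the 45 genes were left. LPL (group means 1.61 in the SINS low and 1.675 in the SINS high group), CD36 (2.76 and 2.94) and STRA6 (3.24 and 3.32) were dim. They lay below the array medians of 4.36 to 4.42. In such dim genes a small log2(FC) does not show that a change was absent. The 3 called genes were a sterol transporter and a pair of retinol-binding proteins that moved in opposite directions.

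**Figure D4:**
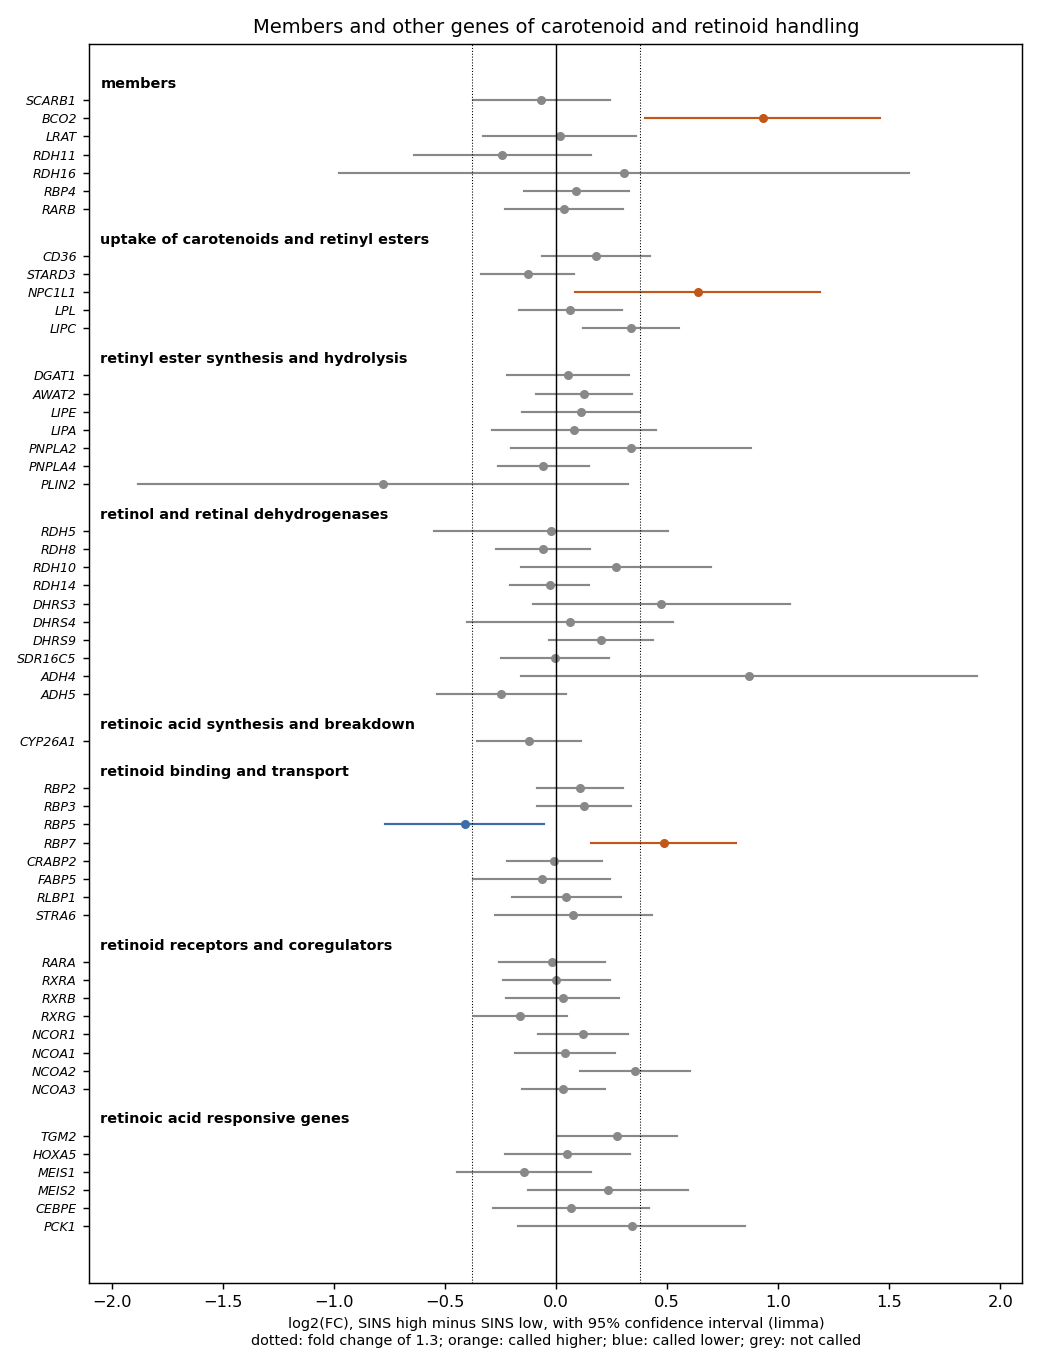
log2(FC) (SINS high minus SINS low) with its 95% confidence interval from limma for the 7 genes and 45 further genes of carotenoid and retinoid handling, grouped by role, each shown once under its first list. Dotted lines mark a fold change of 1.3. BCO2, NPC1L1 and RBP7 were called higher and RBP5 lower, while the other 48 genes were not called.

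Of 5 measured genes for the uptake of carotenoids and retinyl esters, NPC1L1 was higher and 0 were lower, with a median log2(FC) of 0.18. NPC1L1 encodes a transporter that takes up sterols. It spread from 4.40 to 5.91 in the SINS low group (median 4.80) and from 5.22 to 6.05 in the SINS high group (median 5.70). Only 1 SINS high piglet lay above the highest SINS low piglet. The log2(FC) was 0.64 (standard error 0.26, adjusted p = 0.374 from limma), and the exact permutation test gave a two-sided p of 0.0649. NPC1L1 was no longer called with the methods' t-test, nor when replicate 2, 3 or 4 of the SINS low group or replicate 2 of the SINS high group was left out, with a lowest log2(FC) of 0.51 in the fits that left out 1 array. LIPC, the hepatic lipase, was not called because its fold change of 1.27 lay below the filter, and it is named here because of its small p. LIPC lay between 9.29 and 9.56 in the SINS low group (median 9.35) and between 9.42 and 10.01 in the SINS high group (median 9.75), with 5 of 6 SINS high piglets above every SINS low piglet. Its log2(FC) was 0.34 (standard error 0.10, exact permutation test, two-sided p = 0.00649, adjusted p = 0.287 from limma). CD36, a fatty acid and carotenoid receptor, had 0.18, the lipoprotein lipase gene LPL 0.065 and STARD3 −0.13.

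Of 8 measured genes of retinoid binding and transport, 1 was higher and 1 was lower, with a median log2(FC) of 0.062. RBP7 encodes a cellular retinol-binding protein. It lay between 2.55 and 3.25 in the SINS low group (median 2.98) and between 2.87 and 3.77 in the SINS high group (median 3.47), with 5 of 6 SINS high piglets above every SINS low piglet. The log2(FC) of RBP7 was 0.49 (standard error 0.15, exact permutation test, two-sided p = 0.0195, adjusted p = 0.302 from limma), and it was called in all 12 fits that left out 1 array. RBP7 was not called at a fold change above 1.5. Its group means of 2.95 (SINS low) and 3.435 (SINS high) lay below the array medians of 4.36 to 4.42, but it was still called without the dimmest 25% of transcripts. RBP5, a related retinol-binding protein, went the other way. It lay between 6.44 and 7.34 in the SINS low group (median 6.70) and between 6.11 and 6.86 in the SINS high group (median 6.38), and 4 SINS high piglets lay below every SINS low piglet. The log2(FC) of RBP5 was −0.41 (standard error 0.17, exact permutation test, two-sided p = 0.0519, adjusted p = 0.376 from limma). RBP5 was no longer called when replicate 1 or 4 of the SINS low group or replicate 1 or 2 of the SINS high group was left out, with a smallest size at −0.31, nor with array quality weights. STRA6, the receptor that takes up retinol from RBP4, had a log2(FC) of 0.078, and FABP5, which binds retinoic acid, −0.063.

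No gene was called in the other 5 lists in the main limma fit of all 12 arrays. PLIN2, ADH4, DHRS3, NCOA2 and others passed the filter when certain arrays were left out. With all 12 arrays, NCOA2 was also called higher after quantile normalization and ADH4 with the replicate number as a block. Among 7 genes of retinyl ester synthesis and hydrolysis, with a median log2(FC) of 0.082, the lipid droplet coat gene PLIN2 had the smallest p. Its log2(FC) was −0.78 (standard error 0.52), and 4 SINS high piglets lay below every SINS low piglet. It was −0.49 without SINS high replicate 3, −0.45 with array quality weights and −1.12 without SINS high replicate 4, where PLIN2 was called lower. Among 10 retinol and retinal dehydrogenases the median was 0.029, with the smallest p for DHRS9 at 0.20 (standard error 0.11). ADH4, an alcohol dehydrogenase that accepts retinol, had a larger but more variable log2(FC) of 0.87 (standard error 0.48). It was 0.42 without SINS high replicate 2, and ADH4 was called higher without SINS low replicate 5 (1.08) or SINS high replicate 4 (1.12). CYP26A1, which degrades retinoic acid and is induced by it, was the only measured gene of retinoic acid synthesis and breakdown, and had −0.12 (standard error 0.11). Its group means of 2.98 (SINS low) and 2.86 (SINS high) lay below the array medians of 4.36 to 4.42. So did the SINS low and SINS high means of DHRS9 (3.21 and 3.41) and ADH4 (3.44 and 4.31).

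Among 8 retinoid receptors and coregulators the median log2(FC) was 0.032. RARA had −0.018, RXRA 0.0017 and RXRB 0.03. The coactivator gene NCOA2 had the smallest p of this list with 0.36 (standard error 0.12, exact permutation test, two-sided p = 0.0152), at a fold change of 1.28. Among 10 genes that retinoic acid induces in other systems, the median was 0.072. The transglutaminase gene TGM2 had the smallest p with 0.28 (standard error 0.13), and the retinal reductase gene DHRS3 had 0.48 (standard error 0.27).

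The array of SINS high replicate 6 bore on these counts. Without it, 8 of the 45 further genes were higher, namely NPC1L1, LIPC, PNPLA2, RDH10, DHRS3, RBP7, NCOA2 and PCK1, and 1 was lower. The called genes were then 17.8% (higher) and 2.22% (lower) of the 45, and 3.92% (higher) and 6.2% (lower) of all named genes. No test of this difference in shares was made. The log2(FC) of BCO2 was then 1.11, with an unadjusted p of 0.000137 from limma. Over all transcripts the calls also rose without this array, from 538 (2.12%) to 893 higher and from 773 (3.04%) to 1254 lower. In BCO2 this piglet was itself the lowest of its group.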

How the data were processed

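Liver RNA of 12 piglets was hybridized to Affymetrix porcine gene arrays, 1 array per piglet. The authors deposited log2 values from RMA, which corrects background, aligns the arrays and merges probes, in Affymetrix Expression Console, whose version was not given in the sources used here. These were used as given. No detection calls or probe intensities were used, so precision rests on the number of arrays. Of 25388 transcripts, 13257 carry 1 gene symbol, 427 several and 11704 none. The gene ID of 12804 was found in the RefSeq table of Sscrofa11.1, which changed 0 symbols. Where a gene had several transcripts, that of the highest mean was taken. That table was used for names and neighbouring genes only, as the build of the array annotation was not given, and no sequence was used.

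Groups were compared over all transcripts in limma (version 3.58.1, R 4.3.3), using lmFit and eBayes, no covariate and Benjamini-Hochberg adjustment, and the procedure was tested on simulated data. Exact tests ran over 924 assignments, with a smallest possible two-sided p of 0.00216. Correlations used 100000 permutations, or all 720 within a group. Named genes were all 9 members, up to 4 called genes per list and direction, or the gene of smallest p, and the genes most alike. Members and lists were chosen with earlier results of these data known. Values of other genes are given where they describe a list. The alternatives were the methods' t-test, quantile normalization, median centring, a filter on the dimmest 25% of transcripts, an intensity trend with robust eBayes, array quality weights, a replicate block, a fold change above 1.5, the mean of all transcripts per gene, and leaving out each array. Plots used Python 3.11.15 and matplotlib 3.10.9.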

Additional observations from a re-analysis of the deposited data

Results flagged for a closer look

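A piglet far from the other 5 of its group was looked for in 14 groups of values, 7 genes in 2 groups, and chance flags about 1 in 20. BCO2 in SINS low replicate 2 was 4.90, and the nearest other piglet of the group was 5.86, a gap of 0.691 of the range of the group. RDH16 in SINS low replicate 6 was 5.72, with the nearest piglet at 8.49 and a gap of 0.824 of the range. RDH11 in SINS high replicate 3 was 8.11, with the nearest piglet at 8.68 and a gap of 0.626 of the range. This gap was only just above the limit for a flag.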

How the results depend on the processing

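BCO2 was called higher under all 21 alternatives, with a log2(FC) of 0.74 to 1.11 and an unadjusted p of 0.000137 to 0.00847, and the other 6 genes were called in none. With array quality weights the log2(FC) of LRAT was −0.067. When 1 array was left out, the log2(FC) ranged from −0.052 to 0.15 for LRAT, from −0.024 to 0.11 for RARB and from −0.21 to 0.65 for RDH16. The unequal change of RDH16 and RDH11 ranged from −0.026 to 0.896 and that of LRAT and RARB from −0.0947 to 0.0933. The correlation of LRAT with the stellate cell markers ranged from 0.391 (without SINS low replicate 4) to 0.635 (permutation p = 0.0362 without SINS high replicate 3). Calls over all transcripts ranged from 428 (without SINS high replicate 3) to 893 higher and from 550 (without SINS low replicate 6) to 1254 lower (both maxima without SINS high replicate 6), and those among the 45 further genes from 1 to 8 higher and from 0 to 2 lower. At a minimum fold change of 1.5, 165 transcripts were higher and 251 lower, with 1 higher and 0 lower of the 45 genes. The methods' t-test called 1 of the 45 genes higher, and array quality weights called 0 lower. The cause of these shifts was not tested. The planned pairs and relations with BCO1 or TTR could not be run.

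The replicate numbers in the labels name no litter or batch. Deviations of same-numbered piglets correlated with −0.000303 to 0.341, and 2 of 6 pairs were over 0.1. Of the 6 SINS low piglets, 1 correlated best with its own number. With the number as a replicate block, 628 transcripts were higher and 850 lower, BCO2 had a log2(FC) of 0.93 (p = 0.00394 from limma), 3 of the 45 genes were higher (with ADH4, p = 0.042 from limma) and 1 lower, 4 of 5 granulocyte genes were higher, and the correlation of LRAT with the stellate cell markers was 0.125.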
